A study of Aspergillus fumigatus with 4 samples.

Results

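Of the 9540 genes of *Aspergillus fumigatus* Z5 in the deposited count table, 73 had far more reads on rice straw than on any other carbon source measured. They were chosen on the read counts themselves. With 0.5 reads added to each count and the counts scaled by the library total to reads per 1000000 reads (RPM), a gene had to reach 10 RPM on rice straw and at least 4 times its value on cellulose, on xylan and on sucrose. These thresholds were met by 85 genes, which is 0.891% of the 9540, and 12 of them were left out by gene number, as the rule for the set prescribes. All 4 libraries entered the choice, so the values of the 73 genes on rice straw against each other library are a description, with no test. With another carbon source in the place of rice straw and no genes left out, the same thresholds were met by 256 genes on cellulose, 55 on xylan and 80 on sucrose.

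The strain Z5 is a wild-type isolate of *A. fumigatus*, a filamentous fungus that lives on decaying plant matter. Messenger RNA was sequenced from 1 culture each with rice straw, with cellulose (the microcrystalline preparation Avicel), with xylan and with sucrose as the only carbon source. All cultures began from conidia grown on sucrose at 45 °C, for 20 h by the sample labels, whereas the study's methods give a longer time for this step. The mycelium for the first 3 was then washed and moved for 16 h to medium without yeast extract that held the new carbon source, while the age at harvest of the sucrose culture is not given in the sources used here. Carbon source therefore goes together with transfer, medium and possibly age when rice straw is set against sucrose, whereas rice straw, cellulose and xylan share the transfer. There was no replicate, so each test compares 2 libraries and not 2 conditions, and each interval covers counting error only. Amplified reads carried no molecular identifiers, so copies of 1 molecule could not be told apart and the intervals may be too narrow.

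Rice straw is a whole plant material, while the other substrates are single purified polymers or a sugar. Its wall holds cellulose fibres in a mesh of arabinoxylan, with ferulic acid ester-linked to the arabinose side chains and cross-linking to lignin, together with pectin, surface cutin and waxes, protein, minerals and soluble aromatic compounds. Fungi open such a wall with secreted enzymes: lytic polysaccharide monooxygenases, which are copper enzymes that cut crystalline chains by oxidation, hydrolases for the chains and side branches, and esterases for the feruloyl and acetyl groups. The released sugars, organic acids and aromatic compounds are taken up by membrane transporters, and carbon that enters metabolism as acetyl-CoA is kept for biosynthesis through the glyoxylate cycle.

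The libraries held 6820702 to 7553138 reads, so that 1 read was worth 0.132 to 0.147 RPM. The median gene had a log2 ratio of -0.36 for rice straw over cellulose, -0.11 over xylan and -0.30 over sucrose, and ratios below are given without correction for these shifts. Genes described with words for conidia, their hydrophobins and pigment or developmental regulators, 9 in all and none among the 73, summed to 534 RPM on rice straw, against 3190 RPM on cellulose, 263 RPM on xylan and 114 RPM on sucrose. Without the developmental regulators FlbA and WetA, whose descriptions do not name conidia, the other 7 summed to 63.4 RPM on rice straw, against 2920 RPM on cellulose, 67.6 RPM on xylan and 21.1 RPM on sucrose. No gene of the list was at 0 reads on rice straw, where the lowest had 0.265 RPM. The part of such cells in the results was not tested.

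The 73 genes took 2.47% of all reads on rice straw, against 0.374% on cellulose, 0.319% on xylan and 0.121% on sucrose. A single gene, the malate synthase Y699_07347, made up 35.1% of their summed RPM on rice straw. The median of the 73 genes was 85.4 RPM on rice straw, against 8.55 RPM on cellulose, 4.98 RPM on xylan and 4.42 RPM on sucrose, while the median of all genes was 20.3, 25.2, 21.1 and 22.7 RPM in the same order. On rice straw the genes spanned 11.5 to 8651 RPM. There were 34 above 100 RPM. In the other libraries 34 of the 73 stayed under 10 RPM throughout. The next highest library was cellulose for 35 genes, xylan for 26 and sucrose for 12.

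**Figure D1:**
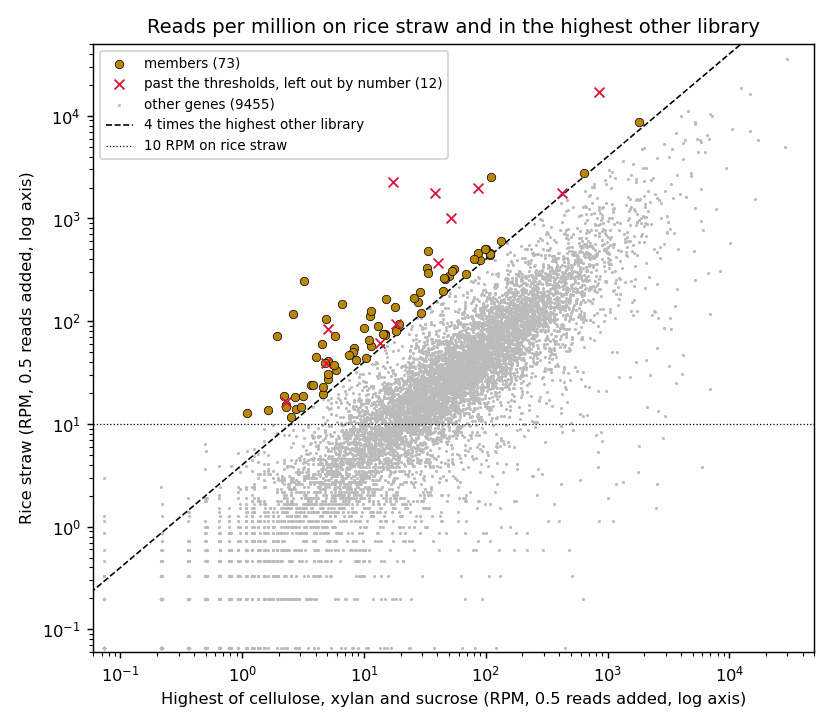
Rice straw RPM of every gene (vertical, log axis) against the highest of its cellulose, xylan and sucrose RPM (horizontal, log axis), both with 0.5 reads added. The 73 members lie above the dashed line at 4 times and the dotted line at 10 RPM, crosses mark the 12 genes left out by number, and most members lie close to the dashed line, 52 of them under 8 times.

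Margins were small for most genes. The ratio of rice straw to the highest other library was 4.06 to 79.3 with a median of 6.06, it was under 8 for 52 genes, at least 10 for 14 and at least 20 for 6. For 54 genes the exact 95% counting interval of that ratio started at 4 or above, and for 19 it reached below 4. The 3 genes just inside the threshold were a zinc-binding dehydrogenase (Y699_09068, ratio 4.05 with 0.5 reads added), a protein with BNR/Asp-box repeats (Y699_03237, 4.08) and the dipeptidyl-peptidase Dpp4 (Y699_06318, 4.19). The 3 just outside were a urea amidolyase (Y699_09076, 3.99), a hypothetical protein (Y699_03346, 3.96) and a LysM domain protein (Y699_00353, 3.90). The urea amidolyase lies next in gene number to a member, the LamB homologue Y699_09075.

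The set included enzymes for cellulose, for hemicellulose, for pectin and for wall esters. By the authors' catalogue of carbohydrate-active enzymes (CAZymes), 11 of the 73 genes (15.1%) were CAZymes, against 5.55% of all genes. With the 12 genes left out by number it was 18 of 85 (21.2%). The share was 10.5% of the genes highest on cellulose, 5.45% of those highest on xylan and 12.5% of those highest on sucrose. The gene with the widest margin among the 73, Y699_03689, encodes a lytic polysaccharide monooxygenase of family AA9 with a cellulose-binding module. It had 249 RPM on rice straw, against 3.14 RPM on cellulose, 1.32 RPM on xylan and 0.285 RPM on sucrose. Its rice straw value was 79.3 (95% interval 52.2 to 127) times that on cellulose, on 22 reads, although cellulose is the textbook substrate of the family. The other member in the authors' cellulase list was a GH3 β-glucosidase, an enzyme class that splits cellobiose, with 23.8 RPM on rice straw, against 0.713 RPM on cellulose, 1.47 RPM on xylan and 3.57 RPM on sucrose (Y699_05768).

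Of 47 other cellulases with reads, 24 were called higher and 2 lower on rice straw than on sucrose, where 7.61% of the 9408 genes tested were called higher and 7.12% lower. A call needed an exact two-sided binomial test of the reads with a Benjamini-Hochberg q of at most 0.0001, a 4-fold difference and 10 RPM in either library. Their median was 3.47 on the log2 scale, against -0.30 for all genes. Here and in the lists that follow the members are not counted on rice straw against sucrose, since the choice set their outcome, while the 12 genes left out by number are. On cellulose against sucrose 24 of all 49 cellulases with reads were called higher and 1 lower, where all genes gave 10.9% and 7.28%. Cellobiohydrolase Y699_07898, which frees cellobiose from chain ends and is no member, had 5938 RPM on rice straw, against 5397 RPM on cellulose, 8.94 RPM on xylan and 2.71 RPM on sucrose.

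The authors' hemicellulase list held 3 members. The feruloyl esterase C gene Y699_02419 (CE1), whose product class frees ferulic acid from arabinoxylan, had 148 RPM on rice straw, against 1.14 RPM on cellulose, 4.11 RPM on xylan and 6.57 RPM on sucrose. This made it 22.5 (95% interval 16.8 to 30.9) times the next highest library, which was sucrose, and its cellulose value was the lowest of the 4. The GH62 arabinofuranosidase Y699_02594, which removes arabinose from xylan, had 43.8 RPM on rice straw, against 10.3 RPM on cellulose, 4.69 RPM on xylan and 0.285 RPM on sucrose. Y699_05728, of family GH43, which holds enzymes for the xylan chain and for its side branches, had 85.4 RPM on rice straw, against 9.98 RPM on cellulose, 3.96 RPM on xylan and 0.571 RPM on sucrose. In both hydrolases the values on cellulose and xylan exceeded that on sucrose, whereas in the esterase they were below it. Of 40 other hemicellulases, 20 were called higher and 1 lower on rice straw than on sucrose, with a median of 2.75 (log2).

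Feruloyl and cutin esters had further enzymes. A second feruloyl esterase, Y699_07554, whose homologue in the strain Af293 is named faeB-1, had 39.3 RPM on rice straw, against 4.70 RPM on cellulose, 0.293 RPM on xylan and 0.714 RPM on sucrose. The cutinase Y699_02431 (CE5), which hydrolyses the polyester of the plant surface, had 72.8 RPM on rice straw, against 14.7 RPM on cellulose, 3.52 RPM on xylan and 9.14 RPM on sucrose, and the extracellular lipase Y699_00170 had 153 RPM on rice straw, against 27.8 RPM on cellulose, 5.13 RPM on xylan and 0.856 RPM on sucrose. All 3 had cellulose as the next highest library. Among 53 other genes described as esterases or lipases, 14 were called higher and 3 lower on rice straw than on sucrose. This list and those below come from words in gene descriptions. These were at hand for 2375 genes, from parts of the authors' tables that include lists of genes varying across these libraries, so the lists do not hold every gene of a role. The word lists also favour genes that vary here, so their counts of called genes cannot be set against the share over all genes.

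Pectin, which is scarce in grass walls, had 2 members among the pectinases, both of family GH28, whose enzymes split polygalacturonic acid. The endo-polygalacturonase Y699_05780 (pgaB in Af293) had 57.3 RPM on rice straw, against 1.995 RPM on cellulose, 2.49 RPM on xylan and 11.4 RPM on sucrose. The exo-polygalacturonase Y699_07404 had 30.6 RPM on rice straw, against 4.99 RPM on cellulose, 0.880 RPM on xylan and 0.856 RPM on sucrose. Their orders below rice straw differed, with sucrose next for the endo-enzyme and cellulose next for the exo-enzyme. Of 31 other pectinases 9 were called higher and 1 lower on rice straw than on sucrose, and of all 33 there were 5 higher and 3 lower on cellulose.

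Outside the 3 wall lists, the CBM33 chitin-binding protein Y699_04924 had 462 RPM on rice straw, against 86.9 RPM on cellulose, 20.2 RPM on xylan and 9.99 RPM on sucrose. Proteins of this class include polysaccharide monooxygenases that act on chitin. A flavin oxidase of family AA7, Y699_07138, described as an isoamyl alcohol oxidase and carrying a chitin-binding module, had 23.7 RPM on rice straw, against 0.570 RPM on cellulose, 0.880 RPM on xylan and 3.71 RPM on sucrose. A hypothetical protein that the authors' table assigns to the chitinase orthologues, Y699_09523, had 195 RPM on rice straw, against 29.2 RPM on cellulose, 13.0 RPM on xylan and 44.4 RPM on sucrose. Sucrose was next highest for the last of these genes and for the AA7 gene.

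Aromatic compound breakdown was represented by 2 genes. Salicylate hydroxylase Y699_03216, whose enzyme class turns salicylate into catechol, had 392 RPM on rice straw, against 70.1 RPM on cellulose, 90.2 RPM on xylan and 31.3 RPM on sucrose. The homogentisate 1,2-dioxygenase Y699_04224, which opens the aromatic ring of homogentisate, an intermediate of tyrosine and phenylalanine breakdown, had 105 RPM on rice straw, against 4.85 RPM on cellulose, 2.79 RPM on xylan and 2.14 RPM on sucrose. That is 21.7 (95% interval 15.4 to 31.6) times cellulose. The member with the third highest RPM, Y699_02510, is described as a thiamine pyrophosphate enzyme, a class that uses the cofactor to decarboxylate or condense 2-oxo acids, and its description names no aromatic compound. It had 2521 RPM on rice straw, against 39.3 RPM on cellulose, 109.7 RPM on xylan and 23.7 RPM on sucrose, or 23.0 (95% interval 21.4 to 24.8) times xylan.

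Homogentisate dioxygenase was encoded by a second gene, which behaved differently. It and the neighbours of members named in this text were singled out after their values were seen. HmgA (Y699_03206) had 32.4 RPM on rice straw, against 137 RPM on cellulose, 2.79 RPM on xylan and 12.6 RPM on sucrose, so its highest library was cellulose. Close to it in gene number lie 4-hydroxyphenylpyruvate dioxygenase (Y699_03204), the enzyme that makes homogentisate, and fumarylacetoacetate hydrolase FahA (Y699_03207), which completes the pathway. Y699_03204 had 31.4 RPM on rice straw, against 241 RPM on cellulose, 2.35 RPM on xylan and 0.714 RPM on sucrose. FahA had 10.2 RPM on rice straw, against 28.6 RPM on cellulose, 0.880 RPM on xylan and 3.85 RPM on sucrose. The gene numbered between Y699_03204 and HmgA is not given here. In both named genes cellulose was highest as in HmgA, while the dioxygenase outside the group, Y699_04224, had its peak on rice straw. Next to Y699_04224 a carboxylesterase, Y699_04223, had 30.5 RPM on rice straw, against 9.83 RPM on cellulose, 2.49 RPM on xylan and 3.28 RPM on sucrose, 3.08 times the next highest library with 0.5 reads added and so short of the threshold.

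Of 23 other genes described with aromatic compound terms, 11 were called higher and 5 lower on rice straw than on sucrose, and with both members 12 of 25 were higher and 6 lower on cellulose. Those called higher on rice straw included a second salicylate hydroxylase (Y699_04647) with 366 RPM on rice straw, against 163 RPM on cellulose, 132 RPM on xylan and 36.1 RPM on sucrose, and a quinate transporter (Y699_03701) with 309 RPM on rice straw, against 187 RPM on cellulose, 4.69 RPM on xylan and 6.42 RPM on sucrose. These also had their highest value on rice straw, but by less than 4 times over cellulose.

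**Figure D2:**
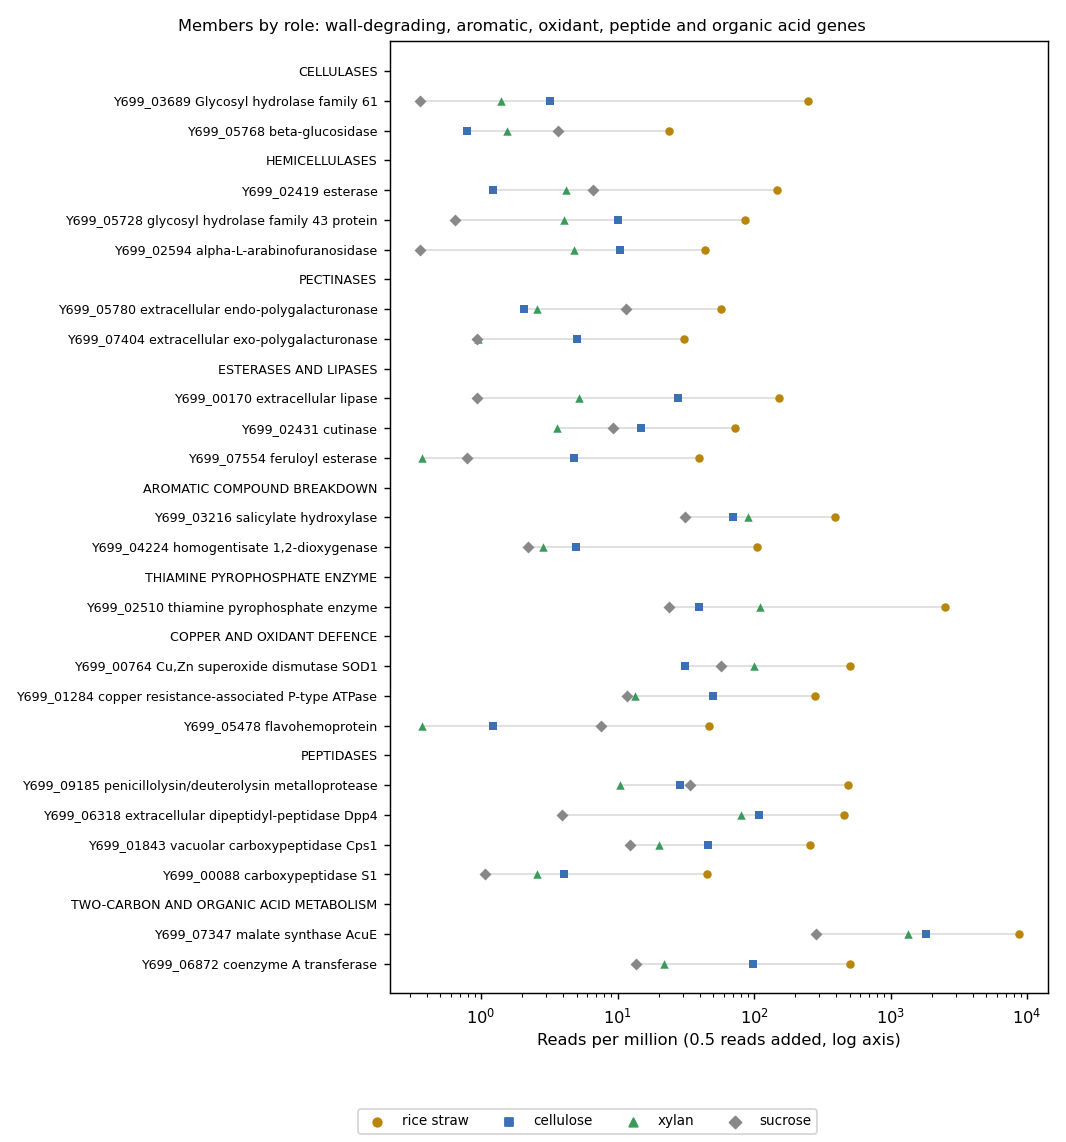
RPM in the 4 libraries (log axis, 0.5 reads added, 1 symbol per library) of the members with roles in wall degradation, aromatic compounds, thiamine pyrophosphate, oxidant and copper handling, peptides and organic acids, ordered by rice straw RPM within each role. The rice straw symbol is at the right in every row by the choice of genes, and the order of the 3 other symbols changes from gene to gene, as for Y699_03689 (cellulose second) and Y699_02419 (sucrose second).

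Copper and oxidant defence held 3 members. The Cu,Zn superoxide dismutase SOD1 (Y699_00764), which removes superoxide, had 504 RPM on rice straw, against 31.1 RPM on cellulose, 100.1 RPM on xylan and 56.8 RPM on sucrose. A copper-exporting P-type ATPase described as resistance-associated, Y699_01284, had 277 RPM on rice straw, against 49.7 RPM on cellulose, 13.3 RPM on xylan and 11.6 RPM on sucrose. Superoxide dismutase was lowest on cellulose, while the copper pump had cellulose in second place. A flavohemoprotein, Y699_05478, of the class that converts nitric oxide to nitrate, had 47.0 RPM on rice straw, against 1.14 RPM on cellulose, 0.293 RPM on xylan and 7.42 RPM on sucrose.

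The other flavohemoprotein of the table, Y699_03555, was singled out after its values were seen. It had 11180.0 RPM on rice straw, against 457 RPM on cellulose, 1121 RPM on xylan and 4542 RPM on sucrose, with rice straw first and sucrose second as in the member. Per kilobase of coding length it had 9002 RPM on rice straw, against 33.8 RPM for Y699_05478. Rice straw was 2.46 times sucrose with 0.5 reads added, so the gene stayed short of the threshold. A Ctr family copper transporter, Y699_03156, of the family that takes up copper, went the other way with 24.8 RPM on rice straw, against 1154 RPM on cellulose, 1730.2 RPM on xylan and 3649.6 RPM on sucrose. Of the 6 genes in this list that are no members, it was called lower on rice straw than on sucrose and 1 was called higher.

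Peptidases included 4 members. The deuterolysin-type metalloprotease Y699_09185 (mep20 in Af293), a secreted zinc enzyme, had 486 RPM on rice straw, against 28.8 RPM on cellulose, 10.4 RPM on xylan and 33.7 RPM on sucrose, or 14.4 (95% interval 12.6 to 16.5) times sucrose. The secreted dipeptidyl-peptidase Dpp4 (Y699_06318), which cuts dipeptides from the amino end, had 455 RPM on rice straw, against 109 RPM on cellulose, 80.2 RPM on xylan and 3.85 RPM on sucrose. Carboxypeptidase S1 (Y699_00088) had 45.1 RPM on rice straw, against 3.99 RPM on cellulose, 2.49 RPM on xylan and 0.999 RPM on sucrose. The vacuolar carboxypeptidase Cps1 (Y699_01843) had 257 RPM on rice straw, against 45.9 RPM on cellulose, 20.1 RPM on xylan and 12.3 RPM on sucrose. Dpp4 was the gene of the 4 with the widest span between the other libraries. Of 26 other peptidases in the list 9 were called higher and 11 lower on rice straw than on sucrose, with a median of 0.18 (log2).

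Malate synthase AcuE (Y699_07347), which joins glyoxylate and acetyl-CoA in the glyoxylate cycle, was the most abundant member by RPM. It had 8651 RPM on rice straw, against 1824 RPM on cellulose, 1342 RPM on xylan and 283 RPM on sucrose, 4.74 (95% interval 4.66 to 4.83) times cellulose. Per kilobase of coding length it had 5340 RPM on rice straw, second among the members to a short hypothetical gene. Isocitrate lyase AcuD (Y699_09164), which makes the glyoxylate, was singled out after its values were seen and had 652 RPM on rice straw, against 660.4 RPM on cellulose, 77.4 RPM on xylan and 13.7 RPM on sucrose. Rice straw and cellulose were thus level in isocitrate lyase and far apart in malate synthase. The CoA transferase Y699_06872, of a family that moves coenzyme A between organic acids, had 506 RPM on rice straw, against 98.3 RPM on cellulose, 21.8 RPM on xylan and 13.6 RPM on sucrose. Of 16 other genes in the list of 2-carbon and organic acid metabolism, 8 were called higher and 2 lower on rice straw than on sucrose, and of all 18 there were 11 higher and 1 lower on cellulose.

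**Figure D3:**
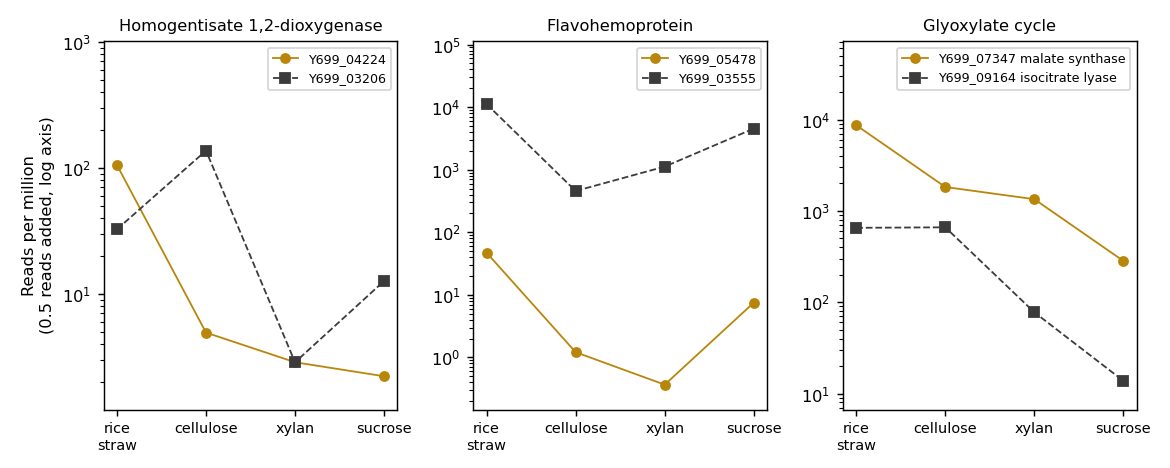
RPM (log axis, 0.5 reads added) of a member (circles) and a related gene that is no member (squares) in the 4 libraries, for homogentisate 1,2-dioxygenase, flavohemoprotein and the glyoxylate cycle pair malate synthase and isocitrate lyase. The member peaks on rice straw in each panel, while HmgA peaks at 137 RPM on cellulose and isocitrate lyase has 652 RPM on rice straw and 660.4 RPM on cellulose.

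Transport across the membrane was the most frequent description, with 11 members. The widest margin was that of Y699_03609, described as a transporter of 2-ketogluconate, an oxidised glucose acid. It had 60.2 RPM on rice straw, against 3.99 RPM on cellulose, 3.08 RPM on xylan and 4.42 RPM on sucrose, 13.6 (95% interval 9.46 to 20.3) times sucrose. A sugar transporter family protein assigned to the lactate transporters, Y699_08580, had 165 RPM on rice straw, against 3.85 RPM on cellulose, 9.97 RPM on xylan and 15.0 RPM on sucrose. The 2 genes described as monocarboxylate transporters had 137 RPM (Y699_01972) and 33.2 RPM (Y699_03624) on rice straw, and Y699_03624 was level in the other libraries, at 5.70 RPM on cellulose, 5.86 RPM on xylan and 5.85 RPM on sucrose.

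The aquaglyceroporin Y699_04007, a channel for water and glycerol, had 462 RPM on rice straw, against 67.4 RPM on cellulose, 109 RPM on xylan and 9.14 RPM on sucrose. Beside it in gene number lies glycerol kinase (Y699_04006), which traps glycerol in the cell, with 1330.0 RPM on rice straw, against 591 RPM on cellulose, 657 RPM on xylan and 36.4 RPM on sucrose. Both had the same order of libraries. The remaining transporters were an efflux transporter (Y699_01022), an L-fucose permease homologue (Y699_03832), a sugar transporter (Y699_08092) and major facilitator proteins without a named substrate (Y699_03700 and Y699_04505). They had 37.3 to 289 RPM on rice straw, and cellulose was next highest in each. Of 149 other genes in the transporter list 55 were called higher and 31 lower on rice straw than on sucrose, and of all 160 there were 62 higher and 41 lower on cellulose. Its called gene with the most rice straw RPM, the hexose transporter Y699_07916, was no member, with 5324 RPM on rice straw, against 2880.1 RPM on cellulose, 1089 RPM on xylan and 6.57 RPM on sucrose.

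Sugar conversion had an aldose 1-epimerase (Y699_01239), which interconverts the ring forms of sugars, with 319 RPM on rice straw, against 37.2 RPM on cellulose, 54.5 RPM on xylan and 26.0 RPM on sucrose. A member of the dihydrodipicolinate synthetase family (Y699_01364), a fold that also includes sugar acid aldolases, had 75.3 RPM on rice straw, against 13.4 RPM on cellulose, 14.7 RPM on xylan and 4.42 RPM on sucrose. In both genes xylan stood second. Of 11 other genes in the list of sugar and sugar acid conversion, 5 were called higher and 1 lower on rice straw than on sucrose. The 2 members in the phosphatase list were acid phosphatases, which release phosphate from organic esters. They had 606 RPM (Y699_06909) and 192 RPM (Y699_08778) on rice straw, and both had xylan second, at 133 RPM and 28.6 RPM. Of 12 other genes in that list, 3 were called higher and 4 lower on rice straw than on sucrose. The acid phosphatases Y699_03693 and Y699_03525 were among those called higher. Their rice straw values were 1.23 times xylan and 1.11 times cellulose, the next highest library of each.

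The oxidoreductase list held 9 members, among them the salicylate hydroxylase, the homogentisate dioxygenase and the AA7 gene above. An NADH:flavin oxidoreductase (Y699_03191) had 331 RPM on rice straw, against 19.1 RPM on cellulose, 33.1 RPM on xylan and 19.0 RPM on sucrose. An iron-containing alcohol dehydrogenase (Y699_03231), assigned to the hydroxyacid-oxoacid transhydrogenases, had 297 RPM on rice straw, against 22.4 RPM on cellulose, 33.4 RPM on xylan and 20.0 RPM on sucrose. In both, xylan stood second, and cellulose and sucrose were close to each other. A short-chain dehydrogenase (Y699_07879) had 112 RPM on rice straw, against 11.1 RPM on cellulose, 4.98 RPM on xylan and 0.999 RPM on sucrose, with a graded order of the other libraries. Of 261 other oxidoreductases in the list, 74 were called higher and 59 lower on rice straw than on sucrose, and of all 270 there were 84 higher and 92 lower on cellulose.

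The regulator among the members was the NmrA family gene Y699_08705. NmrA itself is known in *A. nidulans* as a repressor of nitrogen utilisation genes. The gene had 71.9 RPM on rice straw, against 5.70 RPM on cellulose, 1.61 RPM on xylan and 0.999 RPM on sucrose, 12.6 (95% interval 9.14 to 17.9) times cellulose. Of 84 other genes in the transcription factor list, 22 were called higher and 15 lower on rice straw than on sucrose. At the cell surface, the GPI-anchored protein Y699_04517 had 118 RPM on rice straw, against 2.57 RPM on cellulose, 0.293 RPM on xylan and 0 reads on sucrose. This was the second widest margin among the members, at 46.1 (95% interval 29.0 to 78.2) times cellulose. The antigenic galactomannoprotein Y699_03713 had 71.0 RPM on rice straw, against 1.85 RPM on cellulose, 1.03 RPM on xylan and 0 reads on sucrose, 38.3 (95% interval 22.2 to 72.4) times cellulose. Since both were at 0 reads on sucrose, their rice straw values were at least 276-fold and 166-fold higher than the floor of 3 reads in that library. On cellulose and xylan neither had more than 18 reads. Of 36 other genes in the list of cell wall and surface proteins, 10 were called higher and 7 lower on rice straw than on sucrose.

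**Figure D4:**
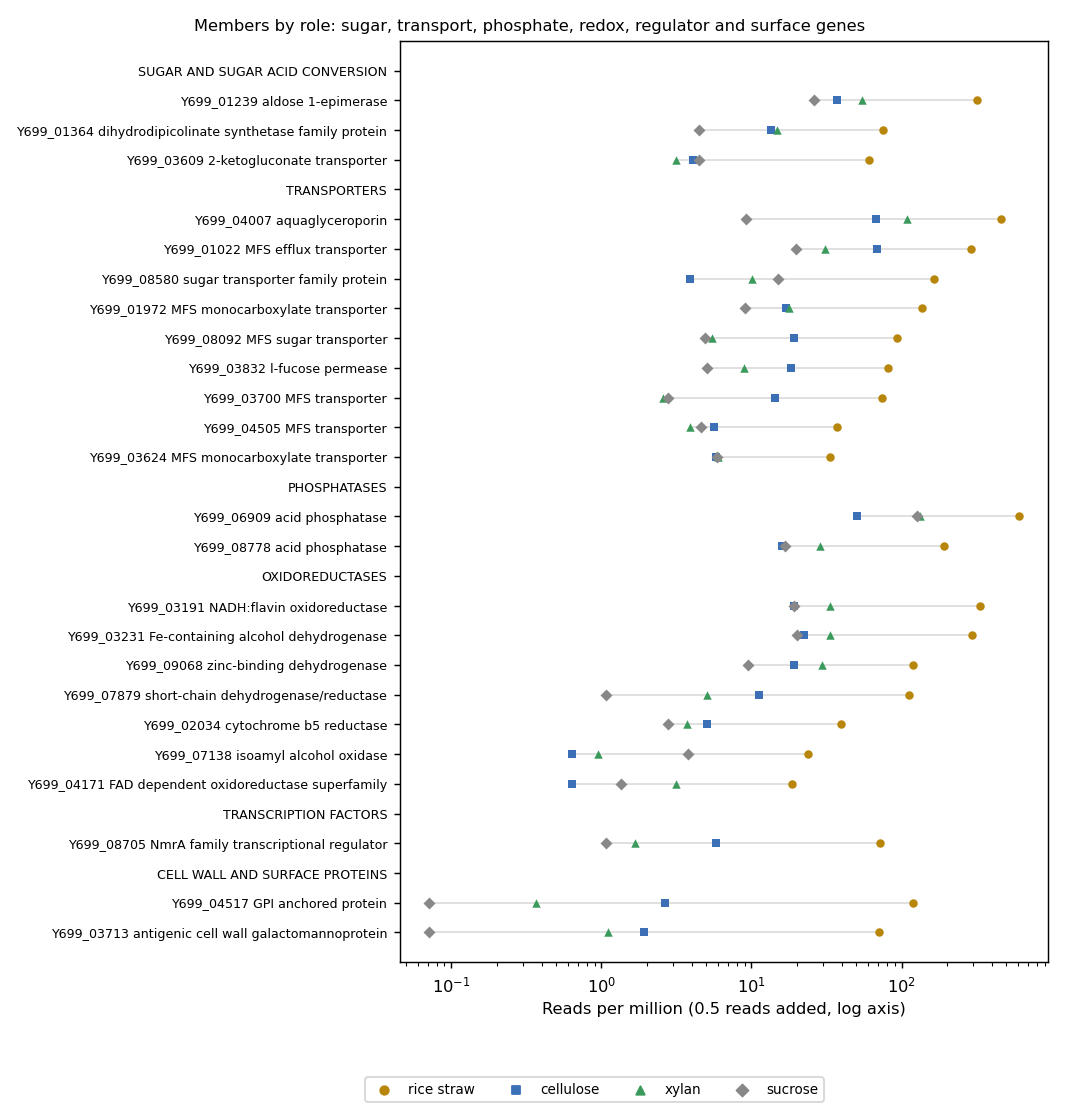
RPM in the 4 libraries (log axis, 0.5 reads added, 1 symbol per library) of the members with roles in sugar conversion, transport, phosphate release, redox reactions, regulation and the cell surface, ordered by rice straw RPM within each role. The 2 surface proteins span the widest range, with 0 reads on sucrose drawn at the value of 0.5 reads, and in Y699_03624 the 3 other symbols coincide near 5.9 RPM.

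Outside these groups, the highest RPM belonged to Y699_04816, a hypothetical gene of 486 coding bases with 2802 RPM on rice straw, against 643 RPM on cellulose, 467 RPM on xylan and 174 RPM on sucrose. Per kilobase it had 5766 RPM on rice straw, the most of all members. The next after malate synthase were Y699_02510 with 1362, superoxide dismutase with 1084 and the acid phosphatase Y699_06909 with 577 RPM per kilobase. A telomere-associated RecQ helicase (Y699_09292) had 400.1 RPM on rice straw, against 13.5 RPM on cellulose, 32.4 RPM on xylan and 79.2 RPM on sucrose. This helicase belongs to a family with similar copies near chromosome ends, and how reads that match several copies were counted is not given in the sources used here.

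Among smaller described genes, the LamB homologue Y699_09075, described as a lactam utilisation protein, had 125 RPM on rice straw, against 5.56 RPM on cellulose, 11.3 RPM on xylan and 1.28 RPM on sucrose. The RTA1 domain gene Y699_04529, of a family of fungal membrane proteins, had 169.9 RPM on rice straw, against 25.7 RPM on cellulose, 3.52 RPM on xylan and 5.71 RPM on sucrose. The ThiJ/PfpI family gene Y699_07963 had 89.0 RPM on rice straw, against 6.27 RPM on cellulose, 13.0 RPM on xylan and 5.57 RPM on sucrose. Of the 73 genes, 63 carried a description in the authors' tables, 8 of them as hypothetical proteins, and 10 carried none. The 10 without one had 11.5 to 27.3 RPM on rice straw. One of them, Y699_03657, was nevertheless among the 10 widest margins, with 12.6 RPM on rice straw, against 0.428 RPM on cellulose, 1.03 RPM on xylan and 0.571 RPM on sucrose, a ratio that rests on 95 reads on rice straw and 7 on xylan.

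Homologues in Af293 were given for 49, all of which were found in its RefSeq annotation, and by their locus tags they lay on 8 chromosomes of that strain. Of the 73 genes, 4 had another member as the next gene number, and 6 had a member or 1 of the 12 genes left out by number. The 4 were the GPI-anchored gene Y699_04517 beside Y699_04518, without a description, and the metalloprotease Y699_09185 beside Y699_09184, a hypothetical gene of 204 coding bases. Whether reads of such neighbours overlap was not analysed here. The authors' CAZyme gene clusters held 8 members (11.0%, against 6.77% of all genes), among them the pair Y699_02419 and Y699_02431 in the same cluster and the pair Y699_05768 and Y699_05780 in another. All 8 were CAZymes themselves, so this count is not separate from that of the CAZymes above. The share in these clusters was 8.2% of the genes highest on cellulose, 9.09% of those highest on xylan and 10.0% of those highest on sucrose, where no genes were left out, and with the 12 genes left out by number it was 18.8% of the 85 on rice straw. Of these 12, the endoglucanase Y699_02418 lies next to the esterase Y699_02419 in gene number, with 1765 RPM on rice straw, against 3.85 RPM on cellulose, 38.3 RPM on xylan and 9.99 RPM on sucrose. The alcohol dehydrogenase Y699_03238 lies next to the BNR-repeat gene Y699_03237, with 2258 RPM on rice straw, against 17.2 RPM on cellulose, 5.42 RPM on xylan and 4.996 RPM on sucrose. Predicted secondary metabolite clusters held 4 members (5.48%, against 4.61% of all genes), and the share was 10.2% of the genes highest on cellulose, 29.1% of those highest on xylan and 12.5% of those highest on sucrose. Of the 4, Y699_04505 and the adjacent pair Y699_04517 and Y699_04518 lay in the same cluster, and malate synthase Y699_07347 in another. The coding length of the 73 genes had a median of 1149 bases, against 1275 bases for all genes.

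The behaviour of the same genes between the other libraries was not fixed by the rule, except that each value had to stay at least 4 times below that on rice straw, and it was tested over all genes. On cellulose against sucrose, 11 members were called higher and 2 lower, which is 15.1% and 2.74% of the 73, where 10.9% of the 9423 genes tested were called higher and 7.28% lower. The largest q of a called member was 4.6e-12 by the exact binomial test with Benjamini-Hochberg adjustment. Members at 10 RPM in either library, a condition for a call, numbered 37. The members' median log2 ratio was 1.02, against 0.07 for all genes.

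The arabinofuranosidase, the lipase and Dpp4 led these calls, with 95% counting intervals in parentheses. The lipase Y699_00170 was 32.5-fold (14.6 to 89.5) higher on cellulose than on sucrose, Dpp4 (Y699_06318) 28.2-fold (19.2 to 43.0) and the arabinofuranosidase Y699_02594 35.9-fold (9.60 to 302), the last on 72 reads on cellulose and 2 on sucrose. The others were the dehydrogenase Y699_07879, the CBM33 gene Y699_04924, the aquaglyceroporin Y699_04007, the CoA transferase Y699_06872, malate synthase Y699_07347, the transporter Y699_03700, the RTA1 gene Y699_04529 and the copper ATPase Y699_01284, between 4.30-fold and 11.1-fold. Called lower on cellulose were the endo-polygalacturonase Y699_05780 and the RecQ helicase Y699_09292, at 0.175-fold (0.0914 to 0.311) and 0.171 (0.136 to 0.213) of the sucrose value. Y699_02594 and Y699_07879 had 10.3 and 11.1 RPM on cellulose, close to the 10 RPM that a call needs. With TMM factors, which moved cellulose over sucrose by -0.08 (log2), these genes were no longer called. The transporter Y699_08580 was then called lower.

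On xylan against sucrose, 7 members were called higher and 1 lower (9.59% and 1.37%), where 3.16% of the 9392 genes tested were called higher and 1.57% lower. The largest q of a called member was 5.3e-10 in the same test, and 30 members reached 10 RPM in either library. Dpp4 was 20.8-fold (14.1 to 31.9) higher on xylan and the BNR-repeat gene Y699_03237 16.5-fold (12.2 to 22.7). The aquaglyceroporin, Y699_09075, Y699_07741 (without a described function), malate synthase and the thiamine pyrophosphate enzyme Y699_02510 followed, between 4.63-fold and 11.9-fold. The endo-polygalacturonase Y699_05780 was lower on xylan too, at 0.218 (0.121 to 0.372) of the sucrose value, a call lost with DESeq2 size factors. Malate synthase, Dpp4 and the aquaglyceroporin were thus called higher on both purified polymers, in comparisons that share the sucrose library.

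On cellulose against xylan, which share the transfer, 6 members were called higher and 1 lower (8.22% and 1.37%), where 9.65% of the 9406 genes tested were called higher and 6.49% lower. The largest q of a called member was 5.6e-12, and 37 members reached 10 RPM in either library. The 6 were the RTA1 gene Y699_04529 at 7.29-fold (4.75 to 11.7), the transporter Y699_03700, the lipase Y699_00170, the CoA transferase Y699_06872, the CBM33 gene Y699_04924 and the cutinase Y699_02431, the others between 4.17-fold and 5.72-fold. The BNR-repeat gene Y699_03237 was lower on cellulose, at 0.210 (0.176 to 0.250) of its xylan value. With TMM or DESeq2 factors the split became 3 higher and 2 lower. Those factors lost the cutinase, the CBM33 gene and the CoA transferase and added Y699_07741 as lower, while among all genes they gave 7.44% higher and 7.79% lower under TMM. In all, 18 of the 73 genes were called in at least 1 of the 3 comparisons, and 55 in none. The 34 genes that stayed under 10 RPM in all of these libraries could not be called in any. The share of all genes called in at least 1 comparison is not given here, so the 18 cannot be set against it.

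**Figure D5:**
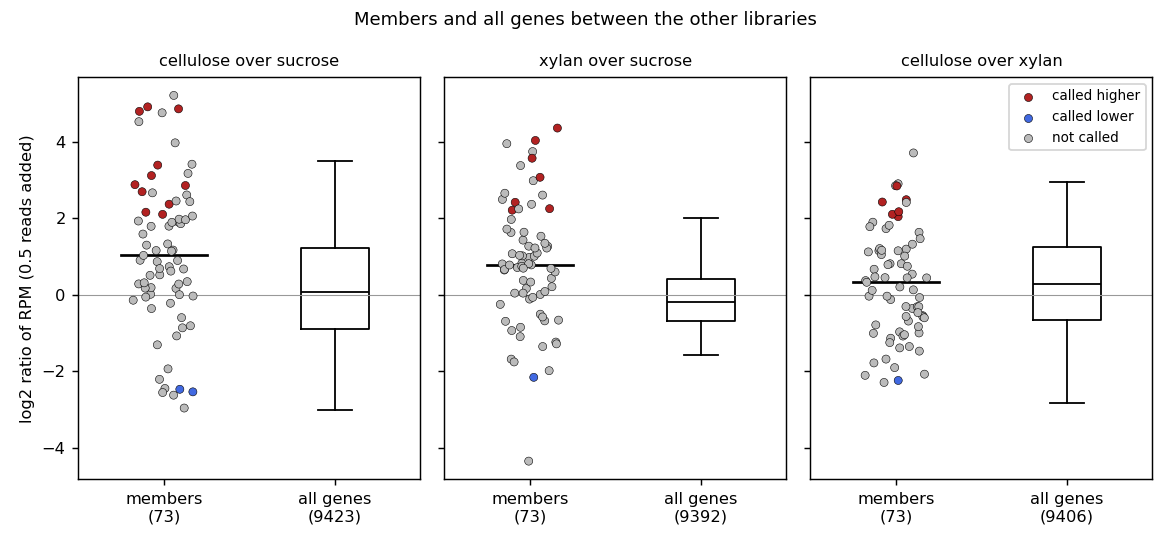
Log2 ratio of RPM (0.5 reads added) between the libraries other than rice straw for the 73 members (points with horizontal jitter, thick line at their median) and for all genes tested (box at the quartiles, whiskers at the 5th and 95th percentiles). Members called higher number 11, 7 and 6 from left to right, those called lower 2, 1 and 1, and the member medians of 1.02, 0.78 and 0.32 stand beside 0.07, -0.20 and 0.27 for all genes.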

How the data were processed

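The deposited table of the authors holds read counts of 9540 genes in 4 libraries, 1 per carbon source. Clean reads were mapped to the Z5 genes with Bowtie 0.12.2 per the submitters' processing notes. How strand and multiple matches were treated was not given in the sources used here. Deposited gene lengths were all multiples of 3 and were taken as coding lengths. The 4 RPM columns, which are counts scaled by library totals, were recomputed, and the 12 columns of the authors' comparisons (fold changes, p-values and q-values) were not used. The deposited column named Avicel was taken as the cellulose library.

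The deposited counts were scaled by column totals. Ratios carry exact 95% intervals (Clopper-Pearson on the 2 counts), and a library at 0 reads was set to a floor of 3 reads. Calls between 2 libraries came from an exact two-sided binomial test (doubled smaller tail) with Benjamini-Hochberg adjustment over all genes read in either of the 2 libraries. Simulated libraries were used to check the rule, the intervals and the calls of rice straw against sucrose. They assumed a coefficient of variation of at most 0.2. Larger spread between cultures and the comparisons between the other libraries were not checked in this way. Descriptions, CAZyme lists and clusters are the annotation columns of the authors' gene tables, which are held only in part for the descriptions, and word lists were drawn from them. Names of Af293 homologues are from RefSeq. The members and lists were chosen with earlier results of these data known. Values in all 4 libraries were to be given for members in a described group, the 10 widest margins, the 5 with the most reads per kilobase and 3 genes on each side of the ratio threshold, and list genes that are no members were limited to the 4 called ones with the most rice straw RPM, apart from those marked as seen first.

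Alternatives were edgeR TMM and DESeq2 scaling, totals without the most abundant 1% of genes, other read additions, thresholds and floors, the DEGseq MARS formula, and the exact test of edgeR at a coefficient of variation set to 0.2 or 0.4. Those for the lists and for single ratios were chosen after seeing the data. The software was R 4.3.3 (DESeq2 1.42.0, edgeR 4.0.16) and Python 3.11.15 (scipy 1.17.1, pandas 2.3.3, numpy 2.4.6, matplotlib 3.10.9).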

Additional observations from a re-analysis of the deposited data

How the results depend on the processing

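No paired analysis was possible because each carbon source had 1 library, and for the same reason no replicate could be left out. The set of 73 genes grew to 102 with TMM or DESeq2 factors and to 89 without the most abundant 1% of genes, and all 73 were kept under each of these. It became 127 at a ratio of at least 3 and 21 at a ratio of at least 8. With the lower interval end at 4 or above, 54 genes remained. TMM and DESeq2 factors raised rice straw over cellulose by 0.38 and over sucrose by 0.30 (log2), which took 19 and 20 of the 73 ratios past their counting interval, and the lowest ratio was then 4.35 and 4.31.

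With an assumed coefficient of variation of 0.4 in the edgeR exact test, members called were 1 on cellulose against sucrose (Dpp4), 0 on xylan against sucrose and 0 on cellulose against xylan, against 13, 8 and 7 as reported, and list genes other than members called on rice straw against sucrose numbered 101, against 384. At that coefficient, 2.22% of all genes were called higher and 1.46% lower on cellulose against sucrose. The shares were 0.607% and 0.138% on xylan against sucrose, and 0.957% and 1.08% on cellulose against xylan. A 2-fold threshold gave 25, 19 and 20 members in the same 3 comparisons, of which 21, 15 and 13 were higher. Of all genes it called 20.9%, 7.5% and 23.1% higher and 16.6%, 8.98% and 13.4% lower, in the same order. Without the 10 RPM floor there were 25 members on cellulose against sucrose and 16 on xylan against sucrose. Of all genes, 12.8% were then called higher and 8.4% lower on cellulose against sucrose, and 3.85% and 2.0% on xylan against sucrose. Spread between cultures was not measured. The other alternatives left the counts within 1.5 times of those reported.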
